A study of Mus musculus with 6 samples.

Results

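The genes described here encode the nuclear subunits and assembly factors of respiratory complex I, taken as every gene whose symbol in the deposited table starts with Nduf. The table holds 29072 genes, and 45 of them met this rule, 38 subunits (Ndufa, Ndufb, Ndufc, Ndufs, Ndufv and Ndufab1) and 7 assembly factors (Ndufaf). Ndufa4 and Ndufa4l2 are counted among the 38 by name, although present knowledge does not place them in complex I. RNA of the interscapular brown fat of C57BL/6J mice, a depot on the upper back that burns fuel for heat, was sequenced. The study set 3 libraries from UCP1(-/-) mice, which carry a knockout of the uncoupling protein gene Ucp1 on that strain background and are called knockout below, against 3 libraries from wildtype mice. No age, sex, housing temperature or treatment is given in the labels. Whether each library came from an animal of its own is not stated, and the p-values then measure only the spread between these libraries, which may be technical.

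Complex I, the NADH:ubiquinone oxidoreductase of the inner mitochondrial membrane, passes electrons from NADH to ubiquinone and pumps protons out of the matrix. Its core subunits carry the flavin, the iron-sulfur clusters and the proton channels, and are encoded partly in the nucleus and partly in mitochondrial DNA. The accessory subunits surround the core, and assembly factors help build the enzyme without staying in it. In brown fat the uncoupling protein UCP1 lets protons back into the matrix without making ATP, so that respiration releases heat, and the tissue is packed with mitochondria.

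Ucp1 itself served as the check of the labels. It was listed at 375, 389 and 372 RPKM (read number relative to transcript length and library size) in the knockout libraries and at 3096, 1714 and 3151 RPKM in the wildtype libraries. The groups did not overlap, and the log2 change was -2.75 (SE 0.21, limma adjusted p = 0.000408). Of the 7 markers of brown adipocytes, Ucp1 and Prdm16 fell (Prdm16 log2 change -0.49, limma adjusted p = 0.0382) and Elovl3 rose (log2 change 0.92, limma adjusted p = 0.0403). Cidea, Cox7a1, Cox8b and Dio2 were not called, although the groups of Dio2 did not overlap (log2 change 0.32, limma adjusted p = 0.114). Knockout was higher without overlap in 24.3% of all tested genes. The depth implied by the values was 15800000 to 18000000 reads per library. Markers of skeletal muscle fibres differed between the groups. All 16 rose in knockout, with a summed level of 1733 to 1947 RPKM against 58.3 to 285 in wildtype. Of 7 macrophage markers 1 was called (Mpeg1, higher), with summed levels of 46.6 to 69.0 RPKM against 31.6 to 49.4. All 7 had log2 changes above 0, and 6 had an unadjusted limma p under 0.05, beside 23.6% of all tested genes. Of 4 white adipocyte markers 1 was called (Agt, higher), with summed levels of 94.8 to 163 RPKM against 31.7 to 99.9. All 4 had log2 changes above 0, from 0.83 to 1.23. No marker of endothelium passed the test among 6, and their sums were 117 to 133 against 115 to 127 RPKM. Muscle fibres also hold complex I, and the part of these cell types in the values below was not tested. Fewer cells of a type and less RNA per cell cannot be told apart in such tissue samples.

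All 45 complex I genes passed the filter on low values, which asks for 1 RPKM or more as the mean of the higher group. Differences are log2 changes of RPKM + 1, knockout minus wildtype, and a change was called at a limma p adjusted over all 11541 tested genes under 0.05. None of the 38 subunits and none of the 7 assembly factors was called, whereas 894 of all tested genes, or 7.75%, were (808 higher and 86 lower in knockout). With another scaling between libraries, the median of ratios, 648 genes were called in all and 72.5% of them were higher, against 90.4% with the deposited scaling. No complex I gene was called there either. At an unadjusted p under 0.05, limma found 0 subunits and 1 assembly factor, Ndufaf6, among 2724 genes in all (23.6% of those tested). With the median of ratios these counts were 20 of 38 subunits and 3 of 7 assembly factors, among 2503 genes in all (21.7%).

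The log2 changes of the subunits were small, from -0.22 to 0.05. Their median was -0.07, beside 0.08 over all tested genes, and 28 of 38 lay below 0, beside 31.4% of all tested genes. Without Ndufa4 and Ndufa4l2 the median was also -0.07, and 27 of 36 lay below 0. With the median of ratios the median of the subunits was -0.18, that of all tested genes -0.02, and all 38 subunits lay below 0. The assembly factors had a median of -0.02 with 4 of 7 below 0, and a median of -0.11 with 7 of 7 below 0 with the median of ratios. The 95% intervals show which changes the data leave room for. All 38 subunits and all 7 assembly factors had intervals within a change of 1.5-fold either way. Within 1.25-fold lay 33 subunits and 6 assembly factors. With the row of highest mean, 6 of 7 assembly factors lay within 1.5-fold. With the median of ratios these counts were 37 and 7 within 1.5-fold, and 14 and 4 within 1.25-fold. The missing call does not show that the groups had equal levels.

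**Figure D1:**
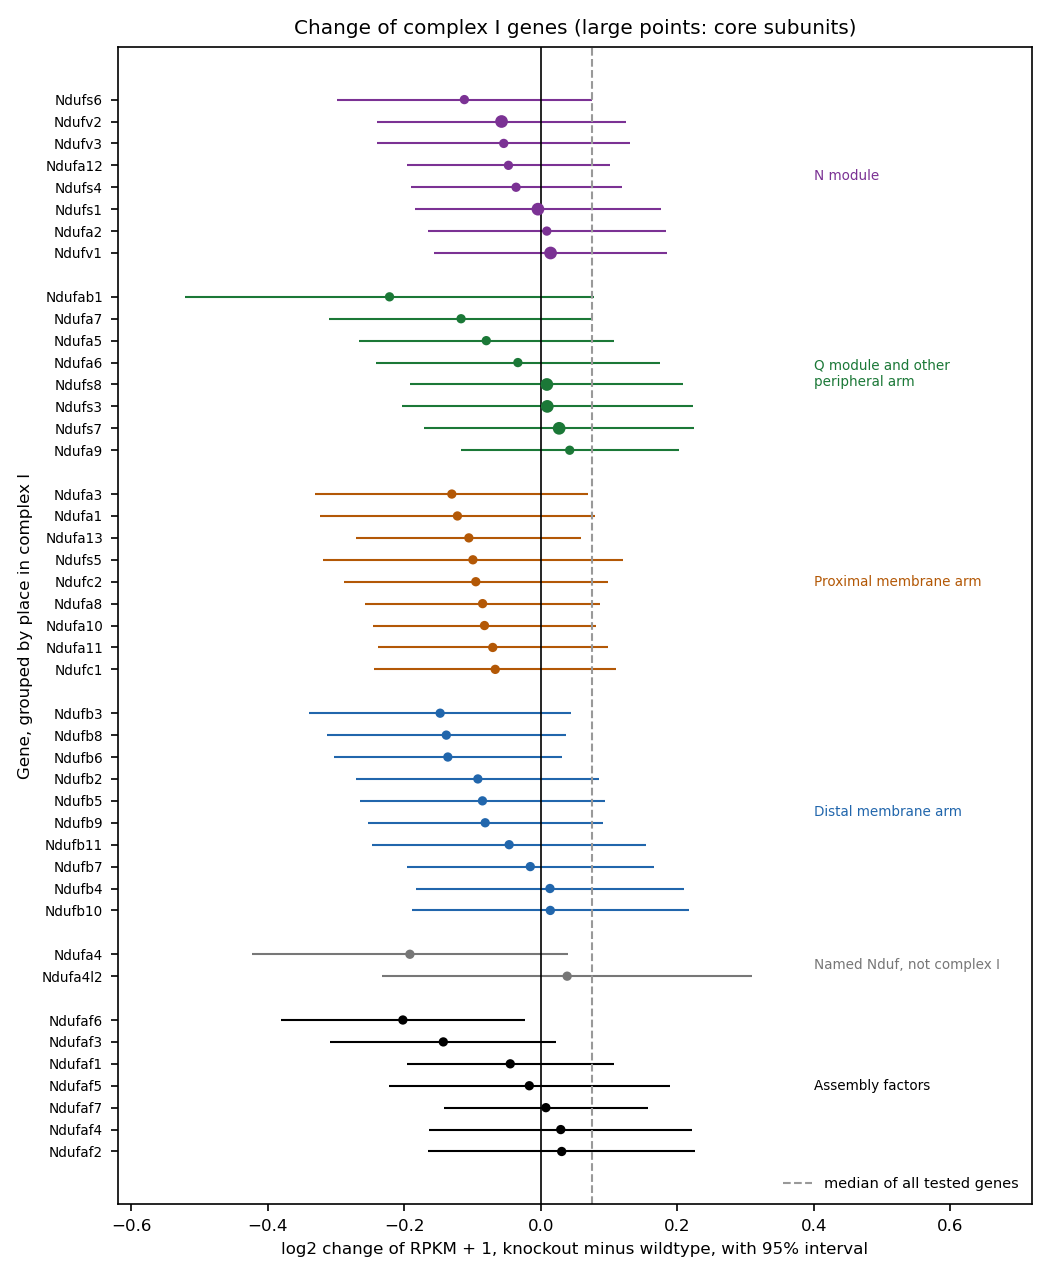
The log2 change of RPKM + 1 (knockout minus wildtype, x axis) of 44 of the 45 genes, with the 95% limma interval as a line and the genes grouped by their place in the enzyme. The points of the subunits run from -0.22 to 0.04 and the dashed line marks the median of all tested genes, 0.08; with the median of ratios all points drawn lie below 0.

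The levels spanned a wide range, while the libraries lay close together within each gene. Values in RPKM are per transcript length, which allows only a rough comparison between genes. It is limited by near-copies and by the choice of transcript row, as given below. Over the 6 libraries the highest mean belonged to Ndufb8, an accessory subunit at the far end of the membrane arm, with 753 RPKM. Next came Ndufa4 with 723 RPKM and Ndufb9 with 695 RPKM. In wildtype replicate 1 Ndufa4, with 842 RPKM, exceeded Ndufb8, with 802 RPKM, so the order of these neighbours did not hold in every library. The subunits had a median CV of 4.3% in knockout and 5.95% in wildtype. The means of the assembly factors, 5.54 RPKM (Ndufaf5) to 32.2 RPKM (Ndufaf1), lay below the 229 RPKM of the median subunit, but 4 subunits (Ndufa4l2, Ndufab1, Ndufa11 and Ndufb4) also had under 32.2 RPKM.

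**Figure D2:**
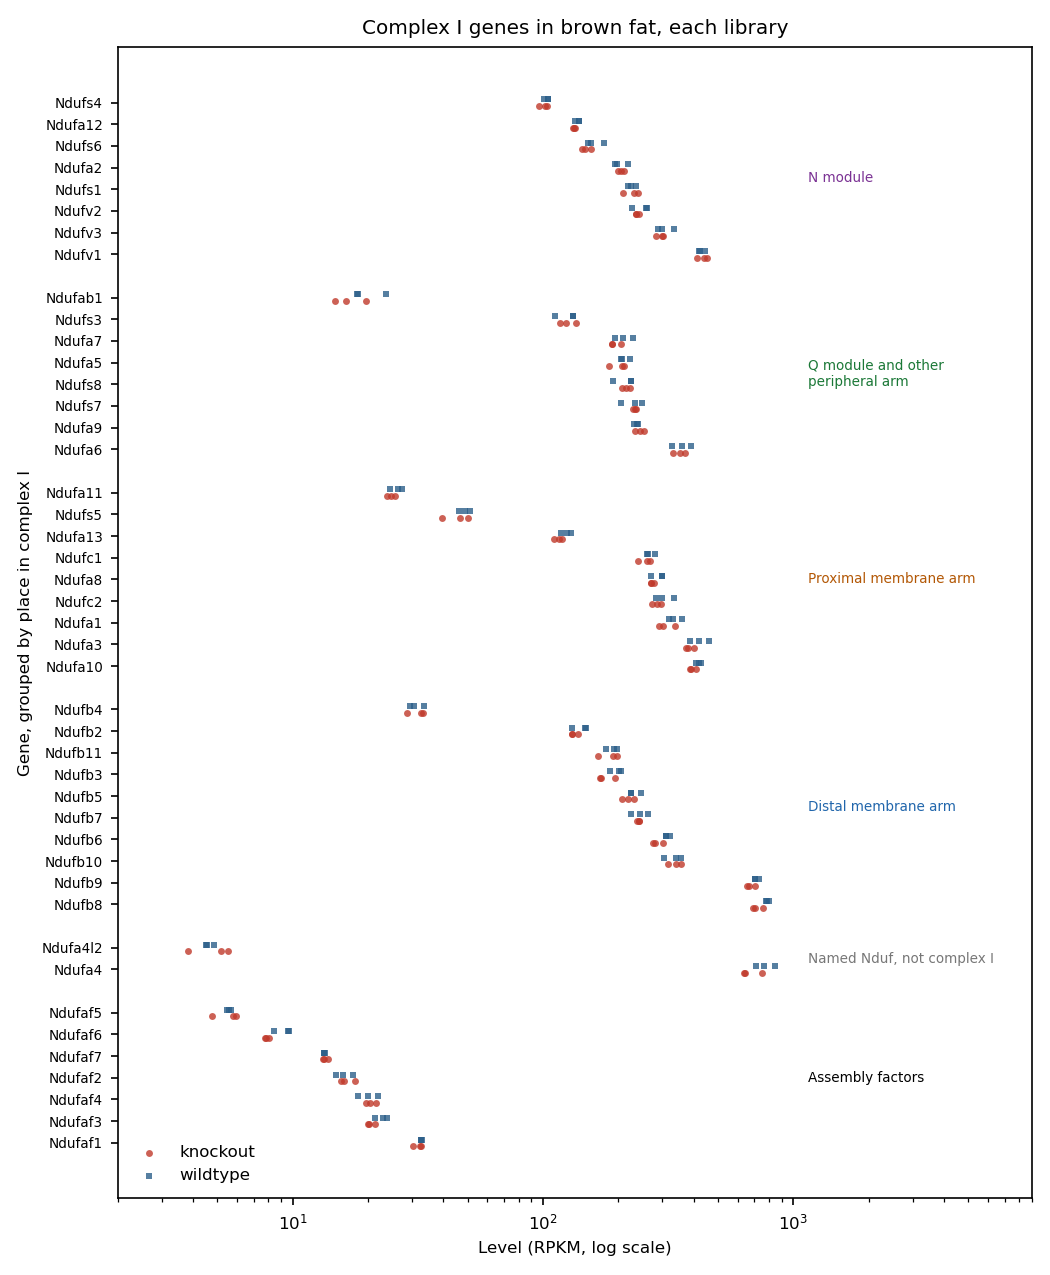
The level of 44 of the 45 genes in RPKM (log x axis) in the 3 knockout libraries (circles) and the 3 wildtype libraries (squares), grouped by place in complex I. The knockout and wildtype points of a gene lie close together, and most subunits sit above 100 RPKM, while the points of the assembly factors run from 4.78 to 32.98 RPKM.

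The lowest subunit was Ndufa4l2, a relative of Ndufa4, with 4.74 RPKM. It was followed by Ndufab1 with 18.5 RPKM, Ndufa11 with 25.5 RPKM, Ndufb4 with 31.3 RPKM and Ndufs5 with 47.2 RPKM. For Ndufab1, Ndufa11, Ndufb4 and Ndufs5 the RefSeq gene table names a near-copy such as Ndufab1-ps or Ndufb4b. It also names one for Ndufa12 and Ndufs6, which had 136 and 155 RPKM and ranked 9 and 11 from the lowest. Gapdh and Ppia, which every cell uses and which have many copies, are listed at 0 in all 6 libraries. The level of a gene with near-copies is therefore uncertain in this table, and its part in the low values was not tested. The choice of transcript row also moved some levels. Another row of Ndufa11 had 122 RPKM, 4.79 times the row used, and the ratio was 2.75 for Ndufa13. The log2 changes of these rows were within 0.01 of each other, at -0.07 for Ndufa11 and about -0.10 to -0.11 for Ndufa13.

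Of the nuclear core subunits, all 7 are in the table and none was called. Their log2 changes ran from -0.06 to 0.05 with a median of 0.01, and 5 of 7 lay above 0, although with the median of ratios all 7 lay below 0 with a median of -0.10. Ndufv1, which binds NADH and the flavin, was listed at 451, 439 and 413 RPKM in knockout and at 420, 426 and 444 RPKM in wildtype. The wildtype values lay inside the knockout range (log2 change 0.01, SE 0.07, limma adjusted p = 0.935). Ndufv2, an iron-sulfur protein beside it, had 243, 236 and 236 RPKM in knockout and 258, 227 and 261 RPKM in wildtype. The wildtype values lay on both sides of all the knockout values (log2 change -0.06, limma adjusted p = 0.714). Ndufs1, the core subunit that carries electrons along the peripheral arm, had 239, 230 and 209 RPKM in knockout and 220, 236 and 224 RPKM in wildtype. Its difference was the nearest to 0 of the core subunits, with a log2 change of -0.0040 (limma adjusted p = 0.984).

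The core subunits near the quinone site gave the same picture. Ndufs7, which helps to form the pocket for ubiquinone, had 233, 235 and 229 RPKM in knockout and 248, 205 and 234 RPKM in wildtype. Here the knockout libraries fell inside the wildtype range, with a log2 change of 0.03 (limma adjusted p = 0.887). Ndufs3 had 124, 135 and 118 RPKM against 131, 111 and 132 RPKM, and Ndufs8, a carrier of iron-sulfur clusters, 222, 215 and 208 RPKM against 225, 191 and 226 RPKM. For both the lowest value of the 6 libraries was in wildtype replicate 2, and the log2 change was 0.01 (limma adjusted p = 0.964 and 0.965).

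The accessory subunits that belong to complex I number 29 here, leaving out Ndufa4 and Ndufa4l2. None was called. Their median log2 change was -0.08, and 25 of 29 lay below 0, or 29 of 29 with a median of -0.19 with the median of ratios. By place in the enzyme, the subunits of the N module, where NADH is oxidised, had a median of -0.04 with 6 of 8 below 0. The Q module and the rest of the peripheral arm, where ubiquinone is reduced, had a median of 0.01 with 4 of 9 below 0. With the median of ratios these medians were -0.15 and -0.10. In the membrane arm, which pumps protons, the proximal part had a median of -0.10 with 9 of 9 below 0 and the distal part a median of -0.08 with 8 of 10 below 0. Their medians were -0.21 and -0.20 with the median of ratios. The differences between these groups were not tested.

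In 3 of 38 subunits, Ndufb6, Ndufb8 and Ndufb9 of the distal membrane arm, every knockout library lay below every wildtype library. This occurred in 5.14% of all tested genes, and the opposite, seen in no complex I gene, in 24.3%. Ndufb8 was listed at 703, 694 and 755 RPKM in knockout and at 802, 780 and 786 RPKM in wildtype. The highest knockout library, replicate 3, was the nearest to wildtype, and the log2 change was -0.14 (SE 0.08, limma adjusted p = 0.315). Ndufb6 had 279, 276 and 302 RPKM in knockout and 321, 310 and 310 RPKM in wildtype. Knockout replicate 3 was again the nearest to wildtype (log2 change -0.14, SE 0.07, limma adjusted p = 0.300). Ndufb9, which holds one of the acyl carrier proteins of the enzyme, had 655, 667 and 705 RPKM in knockout and 732, 706 and 706 RPKM in wildtype. Its groups were all but touching, with a log2 change of -0.08 (limma adjusted p = 0.561).

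Among the subunits, the smallest unadjusted p belonged to Ndufa4, which despite its name is now placed in cytochrome c oxidase (complex IV). Ndufa4 had 636, 642 and 748 RPKM in knockout and 842, 710 and 761 RPKM in wildtype. Knockout replicates 1 and 2 were the lowest, replicate 3 lay within the wildtype range, and the log2 change was -0.19 (SE 0.10, limma adjusted p = 0.292). Ndufa4l2, which can take the place of Ndufa4, had 5.19, 5.53 and 3.80 RPKM against 4.52, 4.55 and 4.86 RPKM. The knockout values lay on both sides of the wildtype values (log2 change 0.04, SE 0.12, limma adjusted p = 0.882), and with the median of ratios the change was below 0. Ndufb3, a small subunit of the distal membrane arm, had 170, 170 and 195 RPKM in knockout and 205, 201 and 186 RPKM in wildtype. Only knockout replicate 3 overlapped with wildtype (log2 change -0.15, SE 0.08, limma adjusted p = 0.329).

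Ndufab1, the mitochondrial acyl carrier protein, which also serves fatty acid synthesis in the matrix, had the lowest log2 change of the subunits. It was listed at 14.8, 19.7 and 16.4 RPKM in knockout and at 18.1, 18.2 and 23.6 RPKM in wildtype. Wildtype replicate 3 stood above the other libraries, the groups overlapped, and the log2 change was -0.22 (SE 0.13, limma adjusted p = 0.344). Without wildtype replicate 3 the change was -0.10 and without knockout replicate 1 it was -0.13, and in both cases that of Ndufa4 was lower (-0.20 and -0.15). The 13 rows of Ndufab1 with a mean of 1 RPKM or more had means of 2.58 to 27.1 RPKM and log2 changes of -0.27 to 0.04.

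Among the 7 assembly factors the groups did not overlap for 2, Ndufaf6 and Ndufaf3, with knockout lower in both. Over all tested genes this occurred in 5.14%. Ndufaf6, which is needed to build the part of the membrane arm around the mitochondrially encoded ND1, was listed at 8.08, 7.79 and 7.84 RPKM in knockout. In wildtype it had 8.43, 9.62 and 9.72 RPKM, with replicate 1 the nearest to knockout. Its log2 change of -0.20 (SE 0.08, 95% interval -0.38 to -0.02) had the smallest unadjusted p of all complex I genes, 0.0312 by limma, and an adjusted p of 0.163. With the row of highest mean of any kind the change was -0.42 (limma adjusted p = 0.0589), and over the 8 rows of Ndufaf6 with a mean of 1 RPKM or more it ran from -0.42 to 0.04. Ndufaf3, which works with Ndufaf4 in building the Q module, had 21.3, 20.1 and 20.1 RPKM in knockout and 22.9, 23.9 and 21.4 RPKM in wildtype. The highest knockout and the lowest wildtype value nearly met (log2 change -0.14, SE 0.07, limma adjusted p = 0.276). Its partner Ndufaf4 had 21.5, 20.4 and 19.7 RPKM against 20.1, 18.3 and 22 RPKM, and the knockout values lay within the wildtype range (log2 change 0.03, limma adjusted p = 0.873).

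The other assembly factors overlapped between the groups. Ndufaf1, which takes part in building the membrane arm, had 32.5, 32.4 and 30.2 RPKM in knockout and 32.5, 32.7 and 32.98 RPKM in wildtype (log2 change -0.04, limma adjusted p = 0.734). Ndufaf2, a factor of late assembly, had 16.1, 15.6 and 17.7 RPKM against 14.9, 17.5 and 15.9 RPKM (log2 change 0.03, limma adjusted p = 0.868). The lowest library was knockout replicate 3 for Ndufaf1 and wildtype replicate 1 for Ndufaf2. Ndufaf5, which hydroxylates Ndufs7, had 5.96, 4.78 and 5.81 RPKM against 5.47, 5.59 and 5.65 RPKM, so that its lowest and its highest values were both in knockout (log2 change -0.02, limma adjusted p = 0.938). Ndufaf7, a methyltransferase, had 13.8, 13.3 and 13.3 RPKM against 13.3, 13.5 and 13.3 RPKM (log2 change 0.01, limma adjusted p = 0.961). Ndufaf8 stands in the table under its older symbol 1810043H04Rik and so lies outside the rule. It had 24.8, 25.9 and 24.4 RPKM against 23.5, 20.7 and 24.0 RPKM (log2 change 0.13, limma adjusted p = 0.345).

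The subunits varied together between libraries. Each level was set against the gene's mean over the 6 libraries. The median over the 38 subunits was then 98.6%, 96.2% and 100.2% in knockout replicates 1, 2 and 3, and 107.1%, 97.2% and 101.5% in the wildtype replicates. Wildtype replicate 1 thus stood above the others, and wildtype replicate 2 lay between knockout replicates 1 and 2. Wildtype replicate 1 held the highest value of 26 of 38 subunits, but of 1449 of all 11541 tested genes (12.6%). The count was 24 of 29 for the accessory subunits and 1 of 7 for the core subunits. For complex IV it was 8 of 11 genes and for ATP synthase 5 of 12. For complexes III and II it was 4 of 9 and 0 of 4, so the pattern was not particular to complex I. The lowest value lay in wildtype replicate 2 for 10 of 38 subunits (26.3%), near its share of 29.7% over all tested genes, and for 5 of the 7 core subunits. It lay in knockout replicate 2 for 14 of 38 subunits (36.8%, beside 9.63% of all tested genes) and in knockout replicate 1 for 11 (28.9%, beside 10.4%). Without wildtype replicate 1 the median log2 change of the subunits was -0.04 with 26 of 38 below 0, and that of the accessory subunits was -0.04 with 22 of 29 below 0.

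Within their own group, 33 of 38 subunits lay above the group mean in wildtype replicate 1 and 4 of 38 in wildtype replicate 2. The median deviation was 0.07 and -0.07 (log2), where over all tested genes it was 0.01 and -0.02. Over the 703 pairs of subunits, the median Pearson r of such deviations across the 6 libraries was 0.449, beside 0.012 over all pairs of tested genes, a description of libraries that all genes share. The median level was 229 RPKM for the subunits and 6.39 RPKM for all tested genes. Pairs of genes of like level and length were not compared, so the part of level in this contrast was not tested. Wildtype replicate 2 also had the lowest wildtype level of Ucp1. Summed over the subunits, the levels were 9578, 9370 and 9858 RPKM in knockout and 10542, 9641 and 10062 RPKM in wildtype. Knockout replicate 3 exceeded wildtype replicate 2, so the sums of the groups overlapped.

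**Figure D3:**
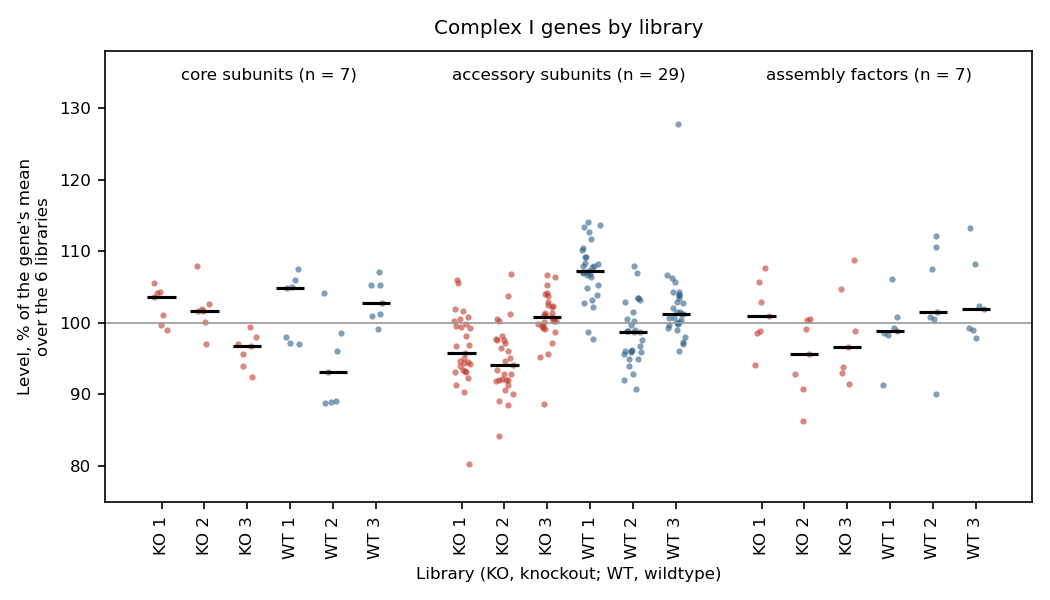
The level of each gene as a percentage of its mean over the 6 libraries (y axis), by library and for core subunits, accessory subunits and assembly factors (points, genes; bars, medians). The accessory subunits stand highest in wildtype replicate 1, with a median of 107.3%, and the core subunits lowest in wildtype replicate 2, with a median of 93.1%.

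The subunits also differed from most genes in transcript length. The core subunits had a median length of 1623 nt, the accessory subunits 680 nt and all tested genes 2799 nt. Of the 38 subunits, 21 had transcripts under 800 nt, with a median log2 change of -0.09 and 18 below 0. The 472 other tested genes of that length had a median of 0.02, and 45.8% of them lay below 0. For the 10 subunits of 800 to under 1600 nt the median was -0.02, beside 0.07 for 1814 other genes, and for the 6 subunits of 1600 to under 3200 nt it was -0.02, beside 0.07 for 4016 other genes. A single subunit, Ndufab1, was longer. Across the 38 subunits, Pearson's r between log2 change and log2 length was 0.173 and Spearman's rho 0.338, and across 10853 tested genes with a length the values were 0.008 and 0.073. The genes share their libraries and are no independent replicates. With the median of ratios all subunits lay below 0 at every length.

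**Figure D4:**
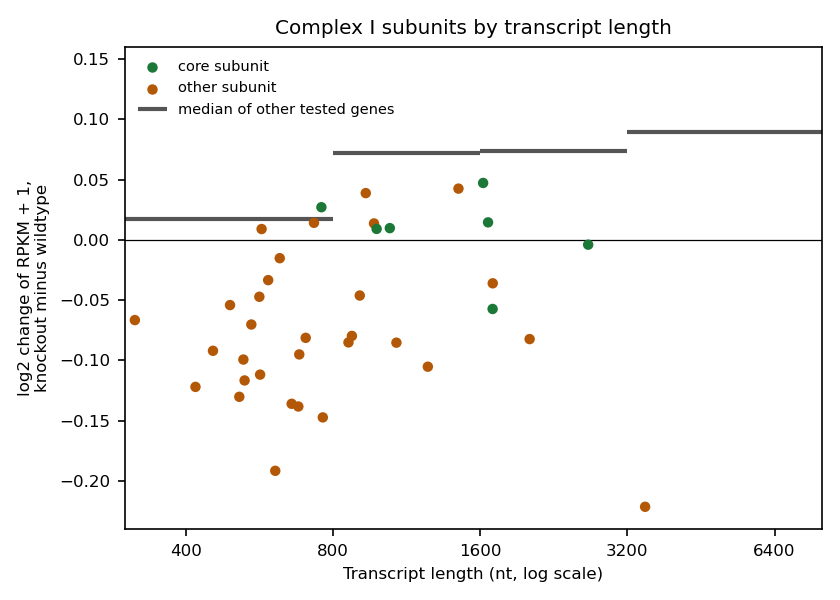
The log2 change of RPKM + 1 (y axis) of each of the 38 subunits against its transcript length in nt (log x axis), with horizontal lines for the median of the other tested genes of each length class. Of the subunits under 800 nt 18 of 21 lie below 0, while the line for other genes there is at 0.02; with the median of ratios all subunits lie below 0.

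Promoter sequences were taken from RefSeq (GRCm38.p6), from 250 bases before to 50 bases after each gene's start, and were found for 39 of the 45 genes. The authors' own genome build is not given in the sources used here, so these coordinates are those of RefSeq alone. Words bound by factors that are known to drive respiratory genes were searched on both strands. The word AAGATGGC, bound by YY1, was present in 7 of 39 complex I promoters (17.9%), in 2.75% of all promoters and in 5.53% of those of tested genes. CGCATGCG, the palindrome bound by NRF1, was present in 4 (10.3%), beside 1.87% and 4.49%. CCGGAAG, bound by ETS factors such as GABPA, was present in 5 (12.8%), beside 8.86% and 21.0%. AAGGTCA, bound by the estrogen-related receptors, was present in 3 (7.69%), beside 4.72% and 3.93%. A word is a description of the letters and no evidence of binding.

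The 7 genes with the YY1 word are shown because the word lies at like places in all of them, starting 23 to 39 bases after the start. Each line gives 30 bases 5′ to 3′ on the strand of the gene, with the word in capitals.
Ndufa3, chr7:3617384-3617413, plus strand: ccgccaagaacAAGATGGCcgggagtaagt
Ndufa9, chr6:126849097-126849126, minus strand: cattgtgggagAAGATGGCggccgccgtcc
Ndufb8, chr19:44555393-44555422, minus strand: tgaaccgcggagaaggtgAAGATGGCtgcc
Ndufc1, chr3:51408915-51408944, minus strand: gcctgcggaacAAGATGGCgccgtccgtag
Ndufs4, chr13:114388045-114388074, minus strand: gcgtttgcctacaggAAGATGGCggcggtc
Ndufs6, chr13:73328433-73328462, minus strand: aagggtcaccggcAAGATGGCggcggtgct
Ndufs7, chr10:80249462-80249491, plus strand: aggccgaggccAAGATGGCggcgctggcgg
In all 7 genes the ATG inside the word is an annotated start codon in GENCODE vM21, so the word spans the end of a short 5′ untranslated region and the start of the coding sequence.

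The 4 genes with the NRF1 word are shown for comparison, since there the word lies at scattered places, with its first base at -112 in Ndufaf4, -59 in Ndufa11, -9 in Ndufa8 and 18 in Ndufaf5 from the start.
Ndufa11, chr17:56717692-56717721, plus strand: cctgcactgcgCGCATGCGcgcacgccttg
Ndufa8, chr2:36049329-36049358, minus strand: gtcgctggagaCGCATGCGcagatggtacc
Ndufaf4, chr4:24897960-24897989, plus strand: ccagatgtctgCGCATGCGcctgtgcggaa
Ndufaf5, chr2:140170652-140170681, plus strand: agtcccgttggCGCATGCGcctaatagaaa
The log2 changes of the genes with the YY1 word ran from -0.14 in Ndufb8 to 0.04 in Ndufa9 with a median of -0.07, beside -0.06 for complex I genes without it. Those with the NRF1 word had a median of -0.04, beside -0.07 without it.

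Of the factors that bind these words, none of those looked up and tested was called. ETS factors other than Gabpa were not looked up. Yy1 had a log2 change of 0.10 (limma adjusted p = 0.576), Nrf1 of 0.03 (limma adjusted p = 0.856) and Esrra of -0.01 (limma adjusted p = 0.973). Gabpa, an ETS factor, had 18.8, 19.2 and 15.2 RPKM in knockout and 13.1, 11.96 and 15.7 RPKM in wildtype (log2 change 0.36, SE 0.12, limma adjusted p = 0.111). Gabpb1, its partner, had a log2 change of 0.27 without overlap of the groups (limma adjusted p = 0.1004). Knockout was higher without overlap in 24.3% of all tested genes. Of the 10 regulators of respiratory genes tested, 1 rose and none fell. The one that rose was 2310042D19Rik, now called Perm1, a muscle-enriched regulator of oxidative genes. It had 26.3, 21.9 and 16.8 RPKM in knockout and 12.8, 8.82 and 14.1 RPKM in wildtype, with no overlap (log2 change 0.82, SE 0.19, limma adjusted p = 0.0372). The muscle markers rose in the same libraries, and their part in the rise of Perm1 was not tested. Ppargc1a, the coactivator of mitochondrial biogenesis, had a log2 change of 0.16 with overlapping groups (limma adjusted p = 0.579).

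Other genes of the enzyme and of the respiratory chain were read from lists of their own. Of 12 assembly factors without the Nduf name, 11 were tested and none was called. The smallest adjusted p was that of Ecsit, a membrane arm factor, with 59.3, 61.6 and 53.3 RPKM in knockout and 51.5, 48.1 and 52.8 RPKM in wildtype (log2 change 0.19, limma adjusted p = 0.202). Every knockout library lay above every wildtype library for Ecsit and Nubpl, 2 of the 11 tested, beside 24.3% of all tested genes. Of the mitochondrially encoded subunits, ND3, ND4L, ND5 and ND6 were tested and none was called. ND6 had 15268, 13625 and 12986 RPKM in knockout and 16248, 15217 and 16645 RPKM in wildtype, with only knockout replicate 1 reaching into the wildtype range (log2 change -0.20, limma adjusted p = 0.327). The use of strand is not given, so reads of RNA from the other strand may be counted for ND6, which was not tested. ND4L had a log2 change of 0.13 and ND5 of -0.07 (limma adjusted p = 0.534 and 0.736). ND3, at 2.87 to 8.13 RPKM beside ND5 at 10977 RPKM or more, is uncertain in this table (log2 change -0.51, limma adjusted p = 0.175).

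The other complexes gave no calls either. None passed the test among 4 genes of complex II, 9 of complex III, 11 of complex IV and 12 of ATP synthase, where the median log2 changes with the deposited scaling were 0.02, -0.06, -0.11 and -0.04. The complex I subunits, with a median of -0.07, lay within that range. Of 15 genes listed for ATP synthase, only these 12 passed the filter on low values. In complex IV the lowest mean over the 6 libraries was 2.23 RPKM, beside 673 RPKM for the median gene. The part of near-copies in such low levels was not tested. The smallest adjusted p of these lists belonged to Uqcrh of complex III, with 540, 500 and 548 RPKM in knockout and 660, 584 and 645 RPKM in wildtype. The groups of Uqcrh did not overlap (log2 change -0.25, SE 0.08, limma adjusted p = 0.118). In complex II, Sdhd, a membrane anchor, also had all knockout libraries below wildtype (log2 change -0.20, limma adjusted p = 0.188). This held for 1 of 4 genes of complex II and 2 of 9 of complex III. It held for 1 of 11 of complex IV and 1 of 12 of ATP synthase, beside 5.14% of all tested genes. The opposite was seen in 1 of 12 genes of ATP synthase, beside 24.3% of all tested genes.

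On chromosome 8, which holds Ucp1, lie Ndufa13 and Ndufb7. Ndufb7 lies within 1 Mb of Ucp1 in the RefSeq gene table. It had 241, 237 and 243 RPKM in knockout and 262, 225 and 244 RPKM in wildtype, and the knockout libraries lay inside the wildtype range (log2 change -0.02, limma adjusted p = 0.935). Ndufa13 had a log2 change of -0.11 (limma adjusted p = 0.421). Ndufb1 was not analysed here.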

How the data were processed

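Total RNA of brown fat was sequenced in 6 libraries made with a TruSeq kit, per the labels' protocols. CASAVA and bcl2fastq are named, without versions, in the submitters' processing notes. For the aligner, genome build, annotation and use of strand, the answer is not given in the sources used here. Genes that overlap on either strand may therefore share reads. The other unit in this table is RPKM: the authors deposited RPKM values with decimal commas for 168326 transcript rows, and no header names the unit. It was read from the values, since 95.8% to 96.1% of low products of value and length were whole multiples of a step per library within 0.1 reads. Depth read from these steps was 15800000 to 18000000 reads, and other sources of imprecision, such as RNA quality, were not measured. Rows without a gene identifier (23170, or 13.8%) were left out. One row was kept per gene, RefSeq rows before others and then the highest mean over the 6 libraries; all 45 complex I genes have a RefSeq row.

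RPKM values were transformed to log2(RPKM + 1), which understates changes of low genes. Genes whose higher group had a mean of 1 RPKM or more were tested with limma 3.58.1 in R 4.3.3, with an intensity trend and a single factor, genotype. Two-sided p-values received the Benjamini-Hochberg adjustment across the tested genes, and the threshold was 0.05. SE is limma's moderated standard error. The script was run on simulated data as a check of the code. There the genes varied independently and every change put in was larger than those of the subunits here. It therefore does not show how often changes of their size would be called. The labels name no batch. The members and all lists were chosen with earlier results of these data known. Genes named are the 6 complex I genes with the smallest p, the core subunits, the assembly factors, the 4 highest and 4 lowest subunits, Ndufa4, Ndufa4l2, Ndufab1, genes whose groups do not overlap, and from each other list up to 3 with the smallest adjusted p. A gene that this rule takes is not reported here. Ndufs5, the fifth from the lowest, Ndufaf8, Ndufa12, Ndufs6, Ndufa13, Ndufb7, the genes with a promoter word and the factors Yy1, Nrf1, Esrra and Ppargc1a, and the brown adipocyte markers Cidea, Cox7a1, Cox8b and Dio2 were named after their values were seen. Alternatives changed the scaling, pseudocount, filter, transcript row, trend, block and libraries.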

Additional observations from a re-analysis of the deposited data

How the results depend on the processing

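Under 13 alternatives no complex I gene was called, and the smallest adjusted p of any of them (limma) ran from 0.0589 (Ndufaf6, with the row of highest mean of any kind) to 0.289. Of 585 gene values, 47 changed sign, 40 moved by over 1 SD and 0 passed the threshold. These counts pool all 13 alternatives, so a shift of most genes under a single alternative is diluted in them. Of the 13 medians of the subunits, that with the median of ratios lay farthest from the main result. With the median of ratios, the median log2 change of the subunits was -0.18, against -0.07 with the deposited scaling, and 20 of 38 subunits had an unadjusted p under 0.05, beside 21.7% of all tested genes. Leaving out 1 library at a time gave 457 to 850 called genes in all, with 477 without knockout replicate 1 and 457 without knockout replicate 2, against 894 in the full comparison; the medians of the subunits were then -0.09 to -0.04 and those of the assembly factors -0.06 to 0.02. The groups share replicate numbers, and with the replicate block 778 genes were called, none of them of complex I, where the smallest adjusted p was 0.241. Deviations of same-numbered libraries correlated at 0.089, 0.038 and -0.018 over all tested genes. With 3 libraries per group this cannot settle whether same-numbered libraries were prepared together. Low genes are limited by depth, and genes with near-copies by how reads were assigned.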
